A study of Mus musculus with 11 samples.

Results

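Transcripts of 7 genes of the hormone-sensing mammary epithelium were examined in the inguinal mammary gland of mice labelled as adipocyte knockouts of Tsc1 and of mice without the knockout. The genes are Esr1, Pgr and Nr3c1, which encode receptors of steroid hormones, Wnt4 and Tnfsf11, which encode secreted or membrane-bound signals, Tnfrsf11a, which encodes the receptor of Tnfsf11, and Prom1, a surface marker. They were taken from a list of names and are 7 of the 22196 genes for which estimated read counts could be summed. Both groups carried Tsc1 alleles that Cre recombinase can delete. The 6 knockout samples were labelled Tsc1-fl/fl; Adipoq-Cre-Tg/+, with Cre under the adiponectin gene Adipoq, and the 5 wild-type samples Tsc1-fl/fl; Adipoq-Cre-+/+. Wild-type thus means without Cre, not without floxed alleles. The whole gland was sequenced, so that the RNA came from epithelium, stroma and immune cells as well as from the adipocytes in which the driver is active. Normal chow was the diet of all animals and PND16.5 (postnatal day) the label of their age, and the protocol in the labels places collection 16 days after delivery without saying outright that the mice were lactating. Replicates are separate samples in the labels, and nothing more is said of their origin, so that p-values measure the spread between these samples.

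Oestrogen and progesterone act on a minority of luminal cells that hold their receptors, and these cells pass the signal to their neighbours through paracrine factors. Oestrogen receptor alpha (Esr1) induces the progesterone receptor (Pgr), which in turn drives expression of Wnt4 and of RANK ligand (Tnfsf11), whose receptor RANK (Tnfrsf11a) sits largely on epithelial cells without these receptors and is needed for alveolar growth in pregnancy. The glucocorticoid receptor (Nr3c1) cooperates with prolactin signalling in milk protein gene transcription, and prominin-1 (Prom1, also CD133) is used to sort the hormone-sensing luminal cells of the mouse gland.

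Depth ranged from 25817975 to 37894237 estimated reads per library. Markers of secretory alveolar cells were abundant in every library, with the casein gene Csn2 averaging 146400 CPM (counts scaled by TMM to a common library size) over the knockout and 177000 CPM over the wild-type libraries, and the luminal markers Krt8, Krt18, Krt19, Epcam and Cdh1 had reads in all 11. Tsc1 itself was not detectably lower in the knockout glands, at 10.1 CPM ± 1.33 (SD, n = 6) against 10.7 CPM ± 1.11 (SD, n = 5), with overlapping ranges. Its log2 fold change of knockout over wild-type was -0.09 ± 0.11 (SE; edgeR test, adjusted p = 0.772). That value covers the whole gland and does not measure adipocytes alone. Of 7 adipocyte markers, 6 had higher means in knockout, with a median log2 fold change of 0.35, and Lep, at -0.81, had a lower one. None of the 7 passed edgeR's threshold and DESeq2 called 3, and the score of the list overlapped between genotypes, from -0.25 to 0.49 with knockout and from -0.40 to 0.07 with wild-type labels. Their summed level did not overlap, at 1144 to 1683 CPM in knockout glands and 687 to 1010 CPM in wild-type glands. Most of that sum was Cfd, with means of 905 and 527.5 CPM. Libraries also differed in lymphoid and muscle RNA. The summed level of 5 B cell genes was 12.8 CPM in Knockout 1, 49.7 CPM in Wild-Type 2, 14.2 CPM in Wild-Type 4 and 63.8 CPM in Wild-Type 5, and between 0.808 and 3.96 CPM in the other 7 libraries. Ms4a1, one of these genes, had no read in 5 libraries. The sum of 5 skeletal muscle genes reached 2037 CPM in Knockout 1 and at most 169.7 CPM elsewhere. The 7 genes were therefore also fitted without the 4 libraries richest in B cell transcripts, a choice made after the data were seen that leaves 5 knockout and 2 wild-type libraries. The values are given where they moved most.

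None of the 7 genes differed between genotypes past an adjusted p of 0.05. The low-count filter kept Esr1, Nr3c1, Wnt4 and Tnfrsf11a and removed Pgr, Prom1 and Tnfsf11. Of the 4 genes tested by edgeR's quasi-likelihood test, 0 passed with Benjamini-Hochberg adjustment over 12716 genes, and 7 of those 12716 genes, or 0.055%, passed. Wnt4 alone of the 4 had an unadjusted p under 0.05, in the direction of knockout, as did 6.31% of all genes tested. In the fit without the filter, in which all 7 genes were tested among 17497, 0 passed again, against 0.04% of all genes. There Pgr, Prom1 and Wnt4 had unadjusted p-values under 0.05 with higher values in knockout, as did 5.29% of all genes tested and 2.95% of the genes that the filter removes. DESeq2 called none of the 7, with no adjusted value for Pgr and Tnfsf11, and 1.09% of the genes it tested. Limma on the authors' deposited table likewise called none of the 7, and 0.0454% of genes. For no member were the knockout and wild-type ranges of TMM-scaled CPM fully apart, a pattern seen with knockout higher in 0.786% and with knockout lower in 0.535% of the genes that passed the filter, and in 0.657% and 0.463% of the 17497 genes of the fit without it. The plot of the 7 genes by library shows this overlap.

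**Figure D1:**
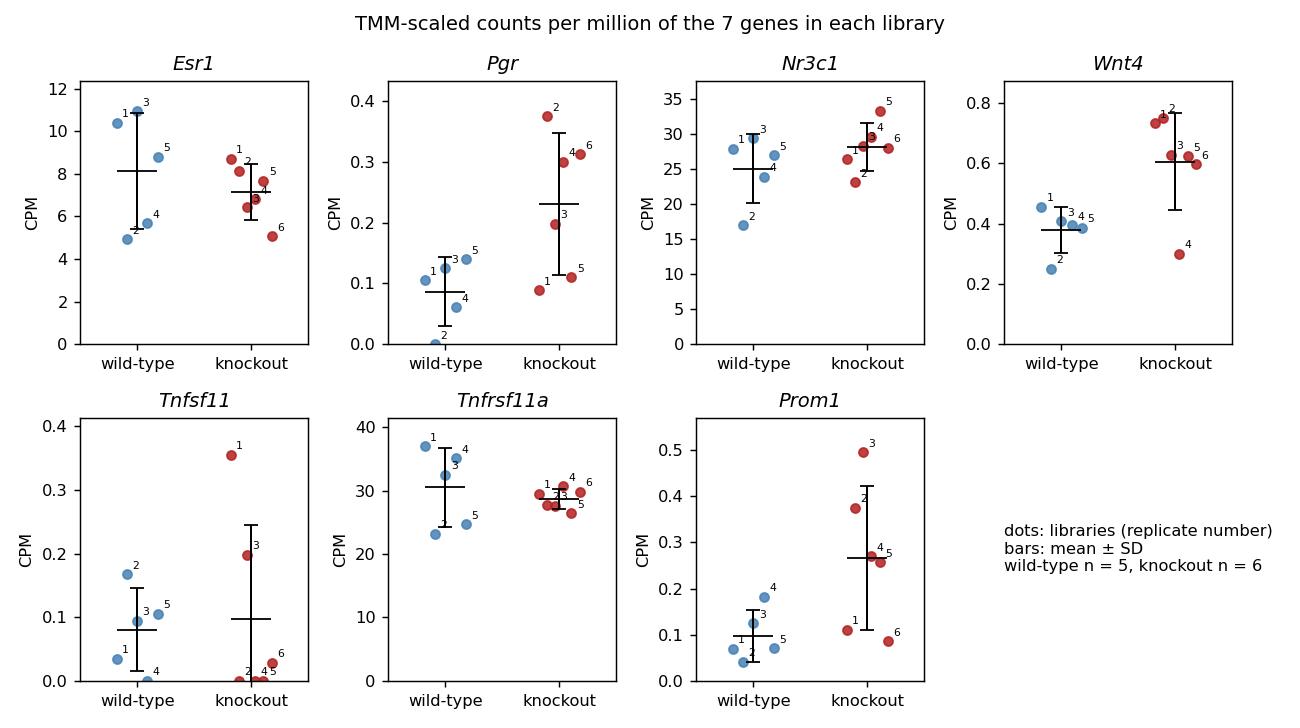
Level of each of the 7 genes in every library, in TMM-scaled CPM on linear axes that start at 0. Dots are libraries with their replicate numbers, horizontal lines are means and bars are ± SD over 5 wild-type and 6 knockout libraries; a lower bar that would pass below 0 is cut at the axis. In these units the genotypes overlap in every panel, and 5 of 6 knockout libraries lie above all wild-type libraries for Wnt4 and 4 of 6 for Pgr and Prom1.

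Per unit of transcript length the genes spanned a wide range. In TPM, an abundance per transcript length on a common total, over all 11 libraries, counting transcript models of at least 50% of the length of the gene's longest model, Tnfrsf11a averaged 6.39 TPM ± 1.25 (SD, n = 11) and Nr3c1 4.74 TPM ± 0.939. Esr1 followed at 1.74 TPM ± 0.488 and Wnt4 at 0.233 TPM ± 0.110. Tnfsf11, Prom1 and Pgr were lowest, at 0.0530 TPM ± 0.0786, 0.0302 TPM ± 0.0213 and 0.0286 TPM ± 0.0213. Between neighbours in this order only Esr1 and Wnt4 had ranges that did not meet, from 1.00 to 2.71 TPM and from 0.0977 to 0.439 TPM. Within libraries, Tnfrsf11a was above Nr3c1 in 10 of 11, Nr3c1 above Esr1 in 11 of 11 and Wnt4 above Tnfsf11 in 11 of 11. Tnfsf11 was above Prom1 in 7 of 11 and Prom1 above Pgr in 5 of 11, so that the last 3 genes could not be ordered. TPM values carry no TMM scaling, and the median of all genes tested was higher in knockout by 0.23 on the log2 scale in TPM, against -0.01 in the edgeR test. On this scale the groups did not overlap for Nr3c1 alone of the 7, a pattern seen with knockout higher in 1.62% and with knockout lower in 0.0393% of the genes that passed the filter. The receptor RANK was well detected in this gland while its ligand was close to the limit of detection.

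Esr1, the oestrogen receptor alpha gene (ENSMUSG00000019768, chromosome 10, 4611593 to 5005614, plus strand, GRCm38), had 118 to 392 counts per library. The wild-type libraries were at 10.4, 4.93, 10.9, 5.68 and 8.81 CPM in order of replicate number. The 6 knockout libraries ran from 5.06 to 8.71 CPM with a median of 7.23 CPM. All 6 knockout values lay inside the wild-type range, and Wild-Type 2 and Wild-Type 4 were lower than the other 3 wild-type libraries. The resulting log2 fold change was -0.19 ± 0.21 (SE; edgeR test, adjusted p = 0.750). It lay between -0.33 without Wild-Type 2 and -0.06 without Wild-Type 3, while mean TPM was slightly higher in knockout, at 1.79 against 1.68. Wild-Type 2 and Wild-Type 4 are among the 4 libraries richest in B cell transcripts. Without those 4, the log2 fold change of Esr1 was -0.65 ± 0.17 (SE, edgeR unadjusted p = 0.00476, adjusted p = 0.490). That fit sets 5 knockout libraries against Wild-Type 1 and Wild-Type 3 alone, the 2 highest for Esr1, and 3.43% of all genes in it had an unadjusted p under 0.05 with lower values in knockout. The part of lymphoid RNA in this value was not tested. Nearly all Esr1 reads fell on 1 of its 2 transcript models, Esr1-204.

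Pgr, the progesterone receptor gene (ENSMUSG00000031870, chromosome 9, 8899833 to 8968611, plus strand), was near the limit of detection. Knockout libraries 1 to 6 held 4, 11, 6, 10, 3 and 11 counts, 45 in all, and wild-type libraries 1 to 5 held 3, 0, 4, 2 and 4 counts, 13 in all. Scaled for library size, the wild-type values were 0.105, 0, 0.126, 0.0607 and 0.140 CPM, and the knockout values ran from 0.0888 to 0.375 CPM with a median of 0.249 CPM. The count of 0 in Wild-Type 2 allows up to 0.125 CPM, taking 3 counts as the limit, which covers counting error only. Knockout 2, 3, 4 and 6 were above every wild-type library, and Knockout 1 and 5 were within the wild-type range. The log2 fold change in the fit without the low-count filter was 1.34 ± 0.59 (SE, edgeR unadjusted p = 0.0381, adjusted p = 0.433). Leaving out each library in turn gave log2 fold changes between 1.07 and 1.56.

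The 250 bases before the Pgr start are shown with the windows of Tnfsf11 and Tnfrsf11a because these genes lie near the ends of the range of levels. The RefSeq promoter table (GRCm38.p6) held windows for 6 of the 7 genes. Each printed window stops before the starts given by GENCODE and by RefSeq. Sequences are on the gene's strand from 5′ to 3′, and capitals mark matches, on either strand, to CCAAT (reading ATTGG here) or TATAAA (reading TTTATA here).
Pgr, chr9:8899583-8899832, plus strand: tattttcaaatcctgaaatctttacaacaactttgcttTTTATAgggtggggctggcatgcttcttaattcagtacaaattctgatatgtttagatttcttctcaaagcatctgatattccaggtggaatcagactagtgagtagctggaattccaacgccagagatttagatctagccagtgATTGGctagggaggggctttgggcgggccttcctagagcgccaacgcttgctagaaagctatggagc
Tnfsf11, chr14:78308044-78308293, minus strand: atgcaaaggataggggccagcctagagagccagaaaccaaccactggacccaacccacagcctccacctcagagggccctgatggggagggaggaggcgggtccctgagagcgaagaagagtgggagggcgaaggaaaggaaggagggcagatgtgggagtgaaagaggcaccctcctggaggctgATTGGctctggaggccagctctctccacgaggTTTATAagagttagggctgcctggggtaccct
Tnfrsf11a, chr1:105780473-105780717, plus strand: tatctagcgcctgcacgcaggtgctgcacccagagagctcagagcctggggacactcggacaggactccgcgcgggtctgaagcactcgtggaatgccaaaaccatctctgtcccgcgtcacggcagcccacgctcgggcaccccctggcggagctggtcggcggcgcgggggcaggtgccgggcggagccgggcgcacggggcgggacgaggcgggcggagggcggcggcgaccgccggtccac
The windows of Pgr and Tnfsf11 each held 1 match to CCAAT and 1 to TATAAA, and that of Tnfrsf11a held neither. Over 32851 such windows of 250 bases, 33.8% held CCAAT and 12.4% held TATAAA. The palindromic oestrogen response element (GGTCA, any 3 bases, then its reverse complement) was in 0.0639% of all windows, and that of glucocorticoid and progesterone receptors (AGAACA, any 3 bases, then its reverse complement) in 0.00913%. Neither was in any of the 8 windows of the 6 genes. The matches describe these letters alone; no deposited value measures binding or accessibility here.

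Nr3c1, the glucocorticoid receptor gene (ENSMUSG00000024431, chromosome 18, 39410545 to 39519421, minus strand), was the highest of the 3 steroid receptor genes per transcript length, with 406 to 1187 counts per library. The wild-type libraries were at 27.9, 17.0, 29.4, 23.9 and 27.0 CPM, and the knockout libraries ran from 23.1 to 33.3 CPM with a median of 28.2 CPM. Wild-Type 2 was the lowest of all 11 libraries and Knockout 5 the highest, and the groups overlapped. The log2 fold change was 0.17 ± 0.13 (SE; edgeR test, adjusted p = 0.633), and it lay between 0.0554 without Wild-Type 2 and 0.23 without Wild-Type 3 when single libraries were left out. It was -0.01 without the 4 libraries richest in B cell transcripts, Wild-Type 2 among them.

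On the TPM scale all 6 knockout libraries lay above all wild-type libraries, and a few reads on short models raised 3 of them further. Summed over all transcript models it stood at 7.02 TPM ± 2.24 (SD, n = 6) in knockout glands and 4.05 TPM ± 0.806 (SD, n = 5) in wild-type glands, with 6.95, 9.84 and 9.53 TPM in Knockout 4, 5 and 6. In these 3 libraries a model of 147 bases, Nr3c1-206, held 0.991, 0.989 and 1.72 estimated reads. Because its effective length there was 5 to 6 bases, those reads counted for 28.6%, 21.5% and 38.2% of the TPM of the gene and for 0.101%, 0.109% and 0.175% of its reads. A model of 389 bases, Nr3c1-205, added 15.4 reads in Knockout 5 and 6.89 in Knockout 6, or 19.2% and 7.0% of the TPM of the gene. Without models shorter than 50% of the longest, the means were 5.30 TPM ± 0.625 (SD, n = 6) and 4.05 TPM ± 0.806 (SD, n = 5), and the groups were still apart, with a lowest knockout value of 4.67 TPM and a highest wild-type value of 4.64 TPM. The log2 ratio of these means was 0.39, or 0.79 over all models, beside the shift of 0.23 for all genes on this scale. The same reads entered fits that correct counts for transcript length: the log2 fold change was 0.58 (edgeR adjusted p = 0.413) with length offsets over all models and 0.16 (edgeR adjusted p = 0.668) without the short ones. In the authors' deposited table, Nr3c1 was at 1134, 1508 and 1385 in Knockout 4, 5 and 6 and between 457 and 810 in the other 8 libraries, and limma on log2 of these values plus 1 gave a difference of 0.53 (adjusted p = 0.510).

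**Figure D2:**
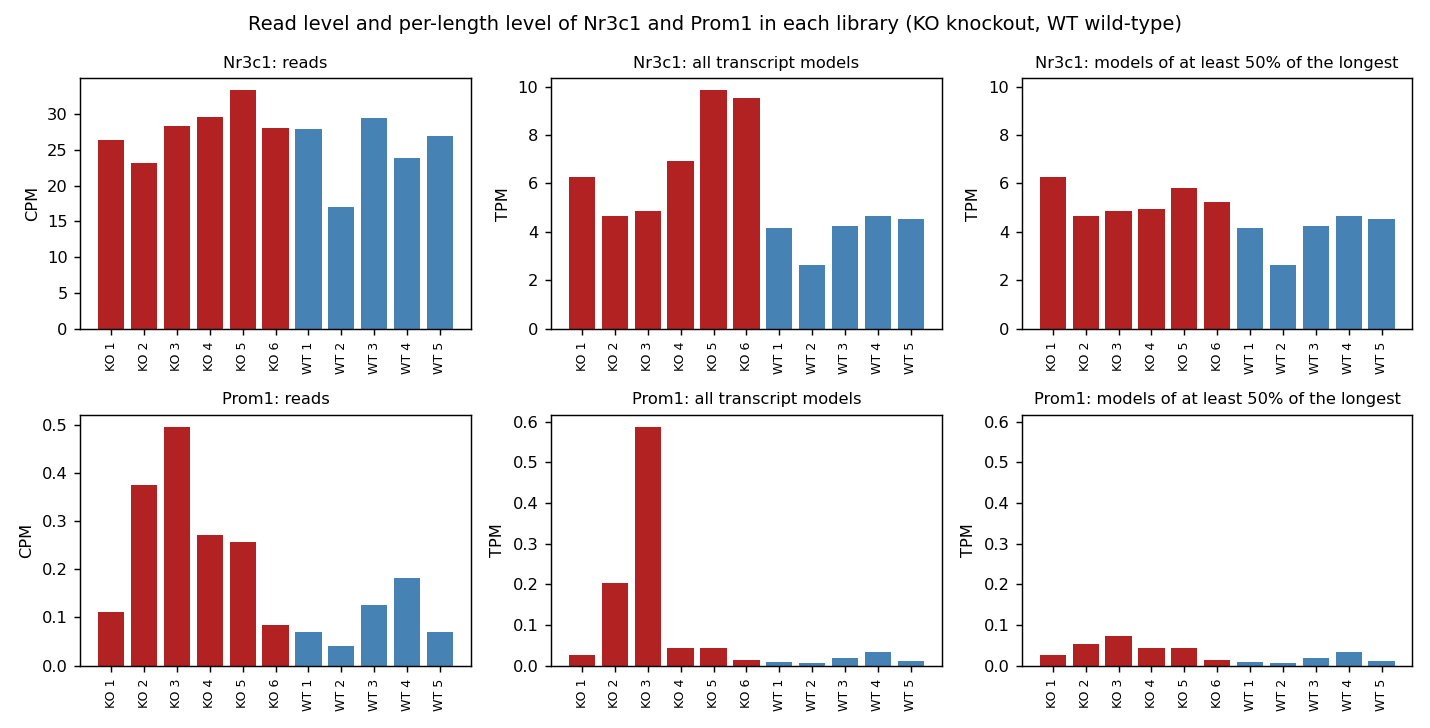
Nr3c1 (upper row) and Prom1 (lower row) in the 6 knockout (KO, red) and 5 wild-type (WT, blue) libraries. Bars give TMM-scaled CPM (left), TPM over all transcript models (middle) and TPM over models of at least 50% of the longest (right); all axes are linear and start at 0. The TPM of Nr3c1 in KO 4, 5 and 6 and of Prom1 in KO 2 and 3 is lower in the right-hand panels, where Prom1 is still highest in KO 3, at 0.0737 TPM, and all KO bars of Nr3c1 stay above the WT maximum of 4.64 TPM.

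The main Nr3c1 transcript, Nr3c1-203, held 89.9% ± 3.40 (SD, n = 6) of the reads of the gene in knockout glands and 86.4% ± 4.92 (SD, n = 5) in wild-type glands, and nearly all other reads fell on Nr3c1-202, whose listed length is 3 bases longer. The difference of 3.51 percentage points did not exceed the spread of the libraries (two-sided exact permutation test, p = 0.199; the smallest p this design allows is 0.00433). It was 1.68 percentage points without Wild-Type 2 (exact permutation test, p = 0.438) and 5.14 without Wild-Type 4 (exact permutation test, p = 0.0762), the extremes of single libraries left out. As a share of TPM the sign turned, to -13.3 percentage points (exact permutation test, p = 0.217), with the lowest shares in Knockout 4, 5 and 6 at 62.1%, 55.9% and 48.4%. These are the libraries in which the short models held reads.

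Wnt4 (ENSMUSG00000036856, chromosome 4, 137277489 to 137299726, plus strand) encodes a secreted signal downstream of progesterone. In TMM-scaled CPM it had the most knockout libraries above all wild-type ones, 5 of 6. Knockout libraries 1 to 6 held 33, 22, 19, 10, 17 and 21 counts and wild-type libraries 1 to 5 held 13, 6, 13, 13 and 11. The wild-type values were 0.455, 0.251, 0.408, 0.395 and 0.386 CPM, and the knockout values ran from 0.301 to 0.750 CPM with a median of 0.626 CPM. All knockout libraries except Knockout 4 were above the highest wild-type library, and Knockout 4 lay below 4 of the 5 wild-type libraries. The log2 fold change was 0.66 ± 0.27 (SE, edgeR unadjusted p = 0.0290, adjusted p = 0.359), or 1.58-fold, and did not pass the threshold. It lay between 0.56 and 0.80 when single libraries were left out and was 0.42 (edgeR unadjusted p = 0.330) without the 4 libraries richest in B cell transcripts. All 5 luminal markers also had higher means in knockout, with a median log2 fold change of 0.41 and none past the threshold, as did markers of other cell types given with the hormone-sensing genes. The summed level of the luminal markers ran from 555 to 875 CPM in knockout glands and from 404 to 778 CPM in wild-type glands. Their part in the Wnt4 value was not tested, and in whole-gland RNA more cells of a type and more RNA per cell cannot be told apart.

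Tnfsf11, which encodes RANK ligand (ENSMUSG00000022015, chromosome 14, 78277445 to 78308043, minus strand), held 16, 0, 6, 0, 0 and 1 counts in Knockout 1 to 6 and 1, 4, 3, 0 and 3 counts in Wild-Type 1 to 5. Of the 23 knockout counts, 16 were in Knockout 1, at 0.355 CPM. The highest wild-type library, Wild-Type 2, was at 0.167 CPM. A count of 0 allows 0.102, 0.0902 and 0.110 CPM in Knockout 2, 4 and 5 and 0.0911 CPM in Wild-Type 4. The log2 fold change in the fit without the filter was 0.40 ± 1.04 (SE; edgeR test, adjusted p = 0.906). It turned to -0.72 without Knockout 1, which also held the most skeletal muscle RNA, and to -0.50 without the 4 libraries richest in B cell transcripts. RANK ligand is also made by activated T cells and stromal cells, and the cell of origin was not measured. No difference was detectable at this depth.

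Tnfrsf11a, the gene of the receptor RANK (ENSMUSG00000026321, chromosome 1, 105780718 to 105847981, plus strand), was read from a single transcript model with 556 to 1328 counts per library. The wild-type libraries were at 37.0, 23.2, 32.5, 35.1 and 24.7 CPM, and the knockout libraries ran from 26.5 to 30.7 CPM with a median of 28.6 CPM. The knockout libraries sat inside the wild-type range and were closer to each other, with an SD of 1.61 CPM (n = 6) against 6.20 CPM (n = 5). The log2 fold change was -0.09 ± 0.12 (SE; edgeR test, adjusted p = 0.784), and -0.18 without Wild-Type 2 and -0.01 without Wild-Type 1 at the extremes of single libraries left out. Mean TPM had the opposite direction, at 6.67 in knockout glands against 6.04 in wild-type glands. Without the 4 libraries richest in B cell transcripts, which include Wild-Type 2 and Wild-Type 5, the lowest 2, it was -0.29 (edgeR unadjusted p = 0.0163, adjusted p = 0.597). The wild-type side of that fit is again Wild-Type 1 and Wild-Type 3 alone, at 37.0 and 32.5 CPM.

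Prom1, the luminal surface marker (ENSMUSG00000029086, chromosome 5, 43993620 to 44102032, minus strand), held 5, 11, 15, 9, 7 and 3 counts in Knockout 1 to 6, 50 in all, and 2, 1, 4, 6 and 2 counts in Wild-Type 1 to 5, 15 in all. The wild-type values were 0.0700, 0.0418, 0.126, 0.182 and 0.0702 CPM, and the knockout values ran from 0.0854 to 0.496 CPM with a median of 0.264 CPM. Knockout 2, 3, 4 and 5 were above every wild-type library, while Knockout 1 and 6 were not. The log2 fold change in the fit without the filter was 1.35 ± 0.55 (SE, edgeR unadjusted p = 0.0271, adjusted p = 0.413). With length offsets over all transcript models it was 2.70, and without models shorter than 50% of the longest it was 1.21. A model of 192 bases, Prom1-211, with 0.927 estimated read in Knockout 3 made up 87.4% of the TPM of the gene there, and Prom1-218, with 2.85 reads in Knockout 2, made up 73.6%. In the authors' deposited table Prom1 was at 85.8 in Knockout 3 and 25 in Knockout 2, and between 0.948 and 6.51 in the other libraries. The span of the gene overlaps those of the antisense gene Gm16401 and the same-strand gene Gm42716, and whether their exons overlap was not examined. The library kit keeps strand, but whether the counting used it is not given in the sources used here. Whether reads of these overlapping genes entered the Prom1 counts was not tested.

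The wider pathways showed no gene past the threshold in edgeR's test. Over all 12716 genes tested, 6146 had higher and 6570 lower means in knockout, to be set beside the counts of direction in each list. Among 13 other nuclear receptors, 12 were tested, of which 5 had higher and 7 lower means in knockout, with a median log2 fold change of -0.02 against -0.01 over all 12716 genes. Rxrb, a partner of many nuclear receptors, had a log2 fold change of -0.20 (edgeR adjusted p = 0.310). Nr3c2, the mineralocorticoid receptor gene, was at -0.07 and Esr2, that of oestrogen receptor beta, at 0.53 on 5 to 21 counts per library. The value of Esr2 ran from 0.39 without Wild-Type 5 to 0.86 without Wild-Type 3. Without the 4 libraries richest in B cell transcripts it was 0.05. All 16 genes of receptor chaperones and cofactors were tested, with 9 higher, 7 lower and a median of 0.01. The heat shock protein genes Hsp90aa1 and Hsp90ab1 had log2 fold changes of 0.06 and -0.02, and the receptor co-chaperone gene Fkbp4 of -0.16. The coactivator genes Ncoa2 and Crebbp were at 0.30 and -0.16, the smallest p-values of that list (edgeR adjusted p = 0.449 and 0.427). That of Ncoa2 was 0.80 with length offsets, 0.30 when these left out short models, 0.76 in limma on the authors' deposited table and 0.18 without Wild-Type 2. Crebbp was at -0.05 with length offsets and -0.06 in that table.

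Of 10 genes of hormone-sensing luminal cells, 6 could be tested. All 6 had higher means in knockout, as did 6146 of all 12716 genes tested. None of the 6 passed the threshold, and their median log2 fold change was 0.35. Among them Gata3, Stc2 and Tbx3 had unadjusted p-values under 0.05, against 6.31% of all genes in that direction. Stc2, which encodes the secreted protein stanniocalcin-2, was at 22 CPM ± 3.29 (SD, n = 6) in knockout glands and 15.2 CPM ± 1.43 (SD, n = 5) in wild-type glands. Its log2 fold change was 0.53 ± 0.11 (SE; edgeR test, adjusted p = 0.137), and its groups overlapped, from 16.7 to 26.1 CPM and from 13.5 to 17.2 CPM. DESeq2 called it (adjusted p = 0.00302), as did edgeR without Knockout 2 (adjusted p = 0.0233). Gata3, a transcription factor of luminal identity, had a log2 fold change of 0.28 (edgeR adjusted p = 0.369), and Cited1, a coregulator of oestrogen receptor, of 0.01. The oestrogen and progesterone targets Areg and Greb1 were below the filter, with at most 3 and 14 counts in any library and no read in 4 libraries each. Markers of several cell types also had higher means in knockout: the 5 luminal markers given beside Wnt4, 7 of 7 myoepithelial markers (median log2 fold change 0.22, summed level 494 to 688 CPM in knockout glands and 395 to 714 CPM in wild-type glands), 5 of 5 of fibroblasts (0.36) and 6 of 7 of adipocytes (0.35). None of these passed edgeR's threshold, and their part in the values of this list was not tested.

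In the RANK pathway, 14 of 15 genes were tested, 10 with higher and 4 with lower means and a median log2 fold change of 0.06. By edgeR, 3 had an unadjusted p under 0.05 with higher and 1 with lower means, against 6.31% and 6.08% of all genes. Traf6, the adaptor that carries the RANK signal, was at 5.15 CPM ± 0.273 (SD, n = 6) in knockout glands and 3.82 CPM ± 0.920 (SD, n = 5) in wild-type glands, a log2 fold change of 0.43 (edgeR adjusted p = 0.310). Id2, a regulator that acts downstream of RANK in the gland, was at 0.59 (edgeR adjusted p = 0.372), and Nfkb2 at -0.05. Tnfrsf11b, which encodes the decoy receptor osteoprotegerin, had 1 to 13 counts per library and was not tested.

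Of 30 genes of the Wnt pathway, 21 were tested, 14 with higher and 7 with lower means and a median log2 fold change of 0.07. By edgeR, 3 had an unadjusted p under 0.05 with higher and 0 with lower means, against 6.31% and 6.08% of all genes. Wnt5a, a ligand that mostly signals without beta-catenin, was at 0.887 CPM ± 0.24 (SD, n = 6) in knockout glands and 0.381 CPM ± 0.274 (SD, n = 5) in wild-type glands, a log2 fold change of 1.23 (edgeR adjusted p = 0.278). Sfrp1, which encodes a secreted inhibitor of Wnt ligands, was at 0.99 (edgeR adjusted p = 0.313). Fibroblast markers also had higher means in knockout, 5 of 5 with a median log2 fold change of 0.36, and their part in these 2 values was not tested. Lgr4, a receptor for R-spondins, was at -0.32 (edgeR adjusted p = 0.426). Axin2, a direct target of Wnt signalling in many tissues, was at 0.01 on 3 to 21 counts per library, and its sign changed with length offsets and with single libraries left out. It was 1.47 without the 4 libraries richest in B cell transcripts. The R-spondin gene Rspo1 had at most 10 counts in a library.

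Of 14 genes that glucocorticoids induce or that control access of the hormone, 13 were tested, 3 with higher and 10 with lower means in knockout. Their median log2 fold change was -0.35, and 3, Sgk1, Dusp1 and Per1, had unadjusted p-values under 0.05, against 6.08% of all genes with lower values. Dusp1, which encodes a phosphatase of MAP kinases, was at 98.9 CPM ± 27.2 (SD, n = 6) in knockout glands and 184.8 CPM ± 59.6 (SD, n = 5) in wild-type glands, a log2 fold change of -0.90 ± 0.23 (SE; edgeR test, adjusted p = 0.230). DESeq2 called it (adjusted p = 0.0171). Sgk1, which encodes a kinase of ion transport, had a log2 fold change of -0.79 (edgeR adjusted p = 0.350). The classical targets Fkbp5 and Tsc22d3 were at -0.30 and -0.22, and Hsd11b1, whose enzyme regenerates active glucocorticoid, at -0.30. Markers of other cells also had lower means in knockout: 4 of 4 of secretory alveolar cells (median log2 fold change -0.26), 4 of 4 tested of B cells (-2.77) and 4 of 4 tested of T cells (-1.35), none past the threshold. Their part in the values of this list was not tested.

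Of 9 surface markers of mammary progenitors, 7 were tested, 3 with higher and 4 with lower means and a median log2 fold change of -0.02. Prom2, the paralogue of Prom1, was at -0.03 and Kit at 0.08. Ly6a, Cd14 and Cd44 were at 0.21, 0.38 and -0.26, with edgeR adjusted p-values of 0.750, 0.569 and 0.692. The plot of fold changes sets the 7 genes beside these lists.

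**Figure D3:**
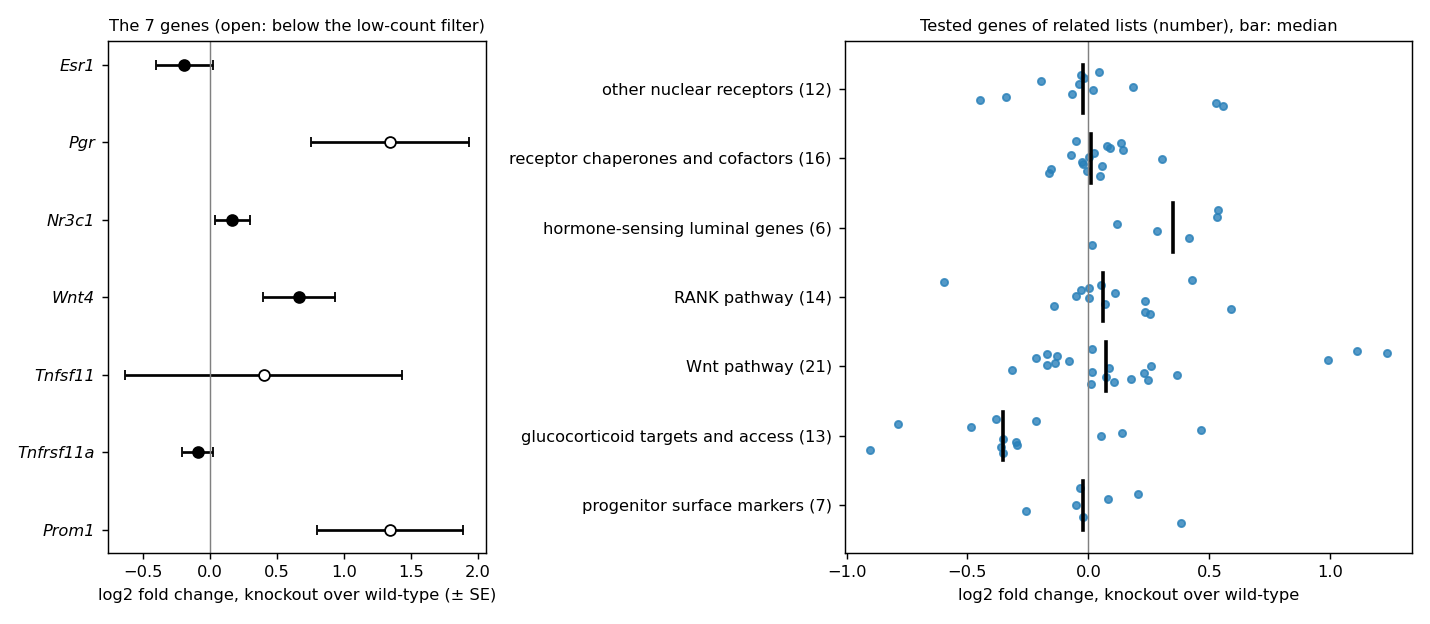
Left, log2 fold change of knockout over wild-type for the 7 genes, with bars of ± 1 SE; open circles are genes below the low-count filter, taken from the fit without it. Right, log2 fold changes of the tested genes of 7 related lists, 1 dot per gene with the number tested in brackets and a bar at the median. Pgr, Prom1 and Wnt4 lie to the right with wide errors, and the list medians run from -0.35 for glucocorticoid targets to 0.35 for hormone-sensing luminal genes.

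Within libraries, the log2 ratio of Pgr to Esr1 was higher in knockout, at -4.70 ± 0.80 (SD, n = 6) against -5.82 ± 0.34 (SD, n = 5). The difference of 1.12 had p = 0.0260 in an exact two-sided permutation test and 0.0519 after adjustment over the 2 ratios tested, so that it did not pass. With a prior count of 0.5 it was 1.61 (exact permutation test, unadjusted p = 0.0346) and by TPM 0.996 (exact permutation test, unadjusted p = 0.0476). Knockout 1 and 5, at -5.85 and -5.48, fell within the wild-type range of -6.30 to -5.44, and the other 4 knockout libraries lay above it. The log2 ratio of Tnfsf11 to its decoy receptor gene Tnfrsf11b was -1.28 ± 1.69 (SD, n = 6) in knockout glands and -0.36 ± 0.70 (SD, n = 5) in wild-type glands, a difference of -0.91 within the spread (exact permutation test, p = 0.286). That difference was -1.56 with a prior count of 0.5, -1.46 by TPM and between -1.37 without Knockout 3 and -0.55 without Knockout 5 when single libraries were left out. Both ratios have a numerator of few counts.

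The 7 genes did not vary together in a way that passed correction. Of the 21 combinations of 2 members over the 11 libraries, none had an adjusted p under 0.610. The closest was Pgr with Prom1 (Pearson r = 0.556, permutation p = 0.0771; Spearman rho = 0.527, permutation p = 0.101), and without Knockout 2 and Wild-Type 2, the libraries farthest from the median of Pgr, r was 0.195. With each genotype mean subtracted, r of Pgr with Prom1 was 0.260. The closest was then Esr1 with Nr3c1 (r = 0.590, permutation p = 0.0521, adjusted p = 0.750), at -0.243 within the knockout libraries alone. Of 42 relations between a member and the score of a cell marker list, 0 passed, with adjusted p-values of at least 0.338. Pgr was lower where lymph node stroma markers were higher (Pearson r = -0.71, permutation p = 0.0145; Spearman rho = -0.618, p = 0.0481), and r was -0.378 without Knockout 2 and Wild-Type 2. Pgr gave r = -0.61 with B cell markers (permutation p = 0.0478) and 0.60 with fibroblast markers (permutation p = 0.0484), and -0.364 and 0.287 without the same libraries. The lymph node stroma score rests on the 2 of 4 genes that were tested, Ccl21a and Madcam1. Ccl19, with no read in 6 libraries, and Cxcl13, with none in 4, did not enter it. Wnt4 was higher where luminal markers were higher (Pearson r = 0.68, permutation p = 0.0224; Spearman rho = 0.636, p = 0.0405), with r of 0.447 without the same libraries and 0.482 after each genotype mean was subtracted. Prom1 and luminal markers gave r = 0.62 (permutation p = 0.0456), 0.383 after the genotype means were subtracted, and -0.0161 within the knockout libraries alone. The relation of Nr3c1 to B cell markers had r = -0.62 (permutation p = 0.0320). For Tnfrsf11a the plain values stayed between -0.465 and 0.302. After the genotype means were subtracted, its r was -0.664 with lymph node stroma (permutation p = 0.0250) and -0.620 with B cells (permutation p = 0.0403). That of Nr3c1 with adipocytes was -0.632 (permutation p = 0.0356), and each had an adjusted p of 0.479. Within the knockout libraries alone the values of Tnfrsf11a had the opposite sign, at 0.282 and 0.559, and that of Nr3c1 was -0.809. Without Wild-Type 1 and Wild-Type 2 the plain values of Tnfrsf11a were -0.0388 and -0.00628. The plain values of Esr1 lay between -0.350 and 0.263. Its value with lymph node stroma was -0.537 after the genotype means were subtracted (permutation p = 0.0895), and 0.0572 within the knockout libraries alone.

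**Figure D4:**
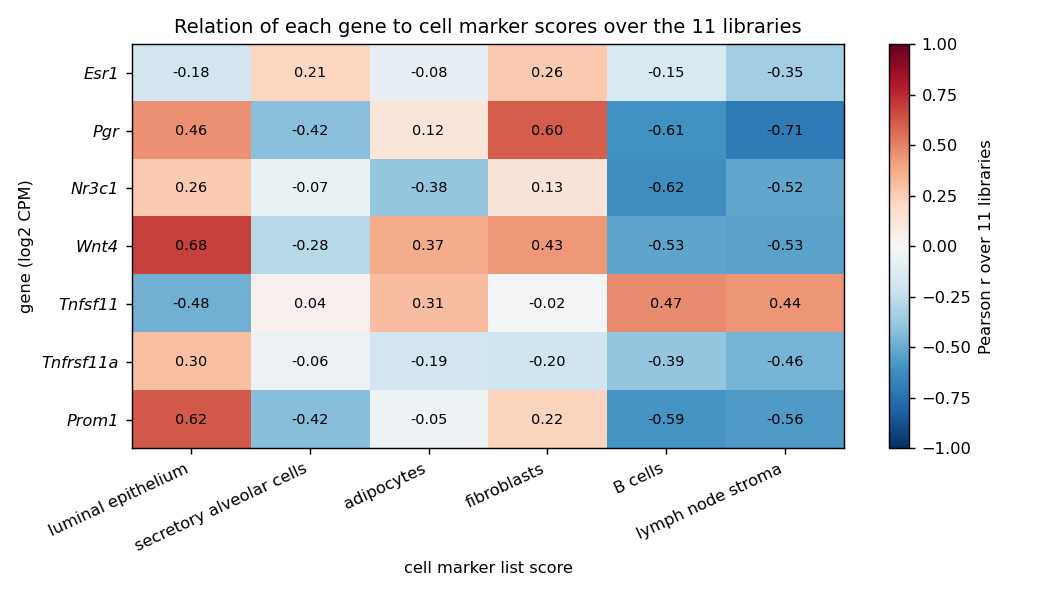
Pearson r over the 11 libraries between each of the 7 genes (rows, log2 CPM) and the scores of 6 cell marker lists (columns). A score is the mean centred log2 CPM of the tested genes of a list, for lymph node stroma 2, Ccl21a and Madcam1. Blue is negative and red positive, on a scale from -1 to 1. The strongest cells are Pgr with lymph node stroma at -0.71 and Wnt4 with luminal epithelium at 0.68, and none of the 42 relations passed adjustment.

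The genes whose levels followed each tested member most closely over the 11 libraries were searched among 12393 genes, and are given as a description with no test. Esr1 was followed by Acrv1 (Pearson r = 0.907), Mmgt1 (0.879) and Pdzd3 (0.846). Nr3c1 was followed by Cpeb3 (0.917), AI597479 (0.916) and Jade1 (0.914). Wnt4 was followed by Cdcp1 (0.901), Igfbp5 (0.893) and Dnajc10 (0.888), and Tnfrsf11a by Klhl21 (0.937), Tor3a (0.919) and Asah1 (0.908). Acrv1, Mmgt1 and Pdzd3 were themselves below 1 CPM on average.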

How the data were processed

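RNA of 11 inguinal glands was made into strand-specific libraries, per the labels' protocols. The authors quantified transcripts with Salmon 1.3.0 on GRCm38.p6 and used DESeq2 1.28.1, per the submitters' processing notes. Per the file headers, the deposited tables give a length, an effective length, TPM and an estimated count per transcript. The listed length was within 3 bases of the coding length for 93.9% of 57318 transcripts, so that untranslated regions were mostly left out. The authors also deposited a table of normalized gene values, used here as a signal on their scale for an alternative only, with a pseudocount of 1.

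Estimated counts, as deposited, were added up by gene through GENCODE M21 identifiers (57452 of 58204 transcripts, the rest holding 0.195% to 0.265% of reads) and rounded. Genes were filtered with filterByExpr and tested with edgeR 4.0.16 (robust quasi-likelihood F test, TMM scaling, genotype as the only term, Benjamini-Hochberg adjustment over 12716 genes, threshold 0.05). Values for Pgr, Prom1 and Tnfsf11 come from the same fit without the filter. The SE beside edgeR values is the absolute log2 fold change divided by the square root of the F statistic, not a direct estimate. CPM are TMM-scaled. The biological coefficient of variation was 24.1%. Ratios and transcript shares were compared by exact permutation over 462 splits, and correlations by 100000 permutations. Where genotype means were subtracted, the permutations ran across genotypes with no allowance for the subtracted means, so that these p-values are approximate. Ratios, correlations and scores used log2 CPM with a prior count of 2. Alternatives were DESeq2 1.42.0, other scaling and filters, length offsets, a replicate block and libraries left out. Chosen after seeing the data were limma 3.58.1 on the authors' table, length offsets without short models, the combinations of another alternative with no filter, and leaving out 4 libraries. Scripts were tested on simulated data.

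The 7 genes and all lists were chosen with earlier results of these data known. Named genes are Tsc1, the 7 genes, in each list the first 3 with a value and the 2 with the smallest p, and the 3 closest followers of each tested member. A gene that this rule names is not reported here. Tbx3 and Per1 were named after their values were seen.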

Additional observations from a re-analysis of the deposited data

Results flagged for a closer look

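Of 20 sets of values examined for a single library far from its group, 1 stood out. Wnt4 was at 0.301 CPM in Knockout 4, against 0.598 to 0.750 CPM in the other 5 knockout libraries. Chance alone marks about 1 set in 20. Without Knockout 4 the log2 fold change of Wnt4 was 0.80 (edgeR unadjusted p = 0.00439, adjusted p = 0.319).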

How the results depend on the processing

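None of the 7 genes passed the threshold in the main test or under any alternative run. The number of genes past it was 7 in the main test, 146 with DESeq2, 0 with the replicate block, 0 without the 4 libraries richest in B cell transcripts, and 0 to 28 with single libraries left out; it was 0 without Knockout 3 or Knockout 6, 2 without Knockout 1 or Wild-Type 3, 13 without Wild-Type 1 or Wild-Type 5, 14 without Wild-Type 4 and 28 without Knockout 2. Genes of the related lists past it numbered 0, with DESeq2 2 (Stc2 and Dusp1), and 0 to 1 with single libraries left out (Stc2, without Knockout 2). The 5 same-numbered pairs of libraries correlated between -0.223 and 0.187, and 0 wild-type libraries correlated best with their own number. Among the knockout libraries, Knockout 3 did correlate best with its own number, at 0.187. The labels do not say whether the numbers mark pairs, and correlations over all genes cannot settle it. With the replicate block the log2 fold change of Esr1 was -0.05.

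The Pgr to Esr1 difference was 0.93 with the replicate block (exact permutation p = 0.125, the smallest possible being 0.0625) and 0.93 to 1.35 with single libraries left out, with p = 0.0571 without Wild-Type 1 or Wild-Type 2. The share of Nr3c1-203 turned to -13.3 percentage points by TPM, where reads on short models weigh heavily. Directions turned for Tnfsf11 (authors' table -0.33; without the 4 libraries -0.50; single libraries left out -0.72 to 0.80) and Nr3c1 (-0.00949 without the 4 libraries). They also turned for Axin2, at 0.01 in the main test (length offsets -2.09, authors' table -1.46, without the 4 libraries 1.47, single libraries left out -0.25 to 0.25) and Cited1 (-0.11 without the 4 libraries, single libraries left out -0.15 to 0.15). With single libraries left out, Nr3c2 ran from -0.16 to 0.0598, Hsp90aa1 from -0.00520 to 0.11, Hsp90ab1 from -0.0598 to 0.0206, Nfkb2 from -0.22 to 0.0313, Fkbp5 from -0.48 to 0.10, Prom2 from -0.11 to 0.14 and Kit from -0.0842 to 0.37. Without the 4 libraries, which leaves 5 knockout and 2 wild-type libraries, Wnt5a was at 1.78, Id2 at 0.92, Kit at 0.64 and Esr2 at 0.05, none past the threshold. The causes were not tested except where stated. With under 20 counts per library for Pgr, Prom1 and Tnfsf11, depth limits what could be detected.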
